A study of Saccharomyces cerevisiae with 28 samples.

Results

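The 10 genes described here belong to nitrogen catabolite repression in budding yeast, Saccharomyces cerevisiae, and were followed by poly(A)+ RNA sequencing in 28 libraries. They are DAL80, DAL1, DAL2, DAL3, DAL7, DAL4, DAL5, DUR3, GAP1 and MEP2, taken by their standard names in the authors' deposited table, which holds 6692 open reading frames (ORFs) in all. The set was chosen by the read counts and RPKM of these libraries, since DAL80 was higher in the H3H113N strain than in WT in SC medium. That contrast is therefore given as a description, with no test. All 10 passed the filter on low values that left 6592 ORFs for testing.

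All strains were BY4741, a haploid MATa laboratory strain derived from S288C, and carried either the histone H3 allele H3H113N or wild-type histone H3. H3H113N was studied alone, with a deletion of CTR1 (dCtr1), which encodes the high-affinity copper transporter, or with a deletion of CCS1 (dCcs1), which encodes the copper chaperone of superoxide dismutase. The study asked how these strains used copper. In YPD, a rich glucose medium, there were H3H113N, H3H113N-dCtr1, dCtr1 and WT, with 2 libraries each. In YPEG, a rich medium with ethanol and glycerol, there were H3H113N and WT, with 2 libraries each. In SC, a synthetic complete medium, there were H3H113N and WT with 3 libraries each, and H3H113N-dCcs1 and dCcs1 with 2 each. H3H113N-dCcs1 and dCcs1 were also grown in SC without lysine (SC-lys), with 2 libraries each, and in SC-lys with 75 µM CuSO4, with 1 library each. The starting optical density was 0.2 for YPD and YPEG, 0.05 for SC and 0.4 for SC-lys with or without copper. Cells were taken after 3 to 4 doublings in YPD and YPEG, after 5 doublings in SC and after 24 h in SC-lys with or without copper. The labels call the growth of all 4 SC-lys cultures and of H3H113N-dCcs1 with copper very slow, and say that time in culture often differed between strains. The labels do not say that replicates came from separate clones, so the p-values measure the spread between these samples, which may be technical.

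In nitrogen catabolite repression, yeast that has a preferred nitrogen source such as glutamine or ammonium keeps the genes for poorer sources low. The GATA factors Gln3 and Gat1 activate these genes through GATA motifs upstream, Ure2 holds Gln3 in the cytoplasm, and Dal80 and Gzf3 are GATA factors that repress them. DAL80 is itself a target, so the repressor is made when repression is lifted. Among the other members, DAL1 (allantoinase), DAL2 (allantoicase) and DAL3 (ureidoglycolate lyase) break down allantoin, DAL7 encodes a malate synthase, DAL4 and DAL5 encode the permeases of allantoin and allantoate, DUR3 the urea transporter, GAP1 the general amino acid permease and MEP2 the high-affinity ammonium permease.

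The upstream sequences of 5 members are shown because the genes share GATA motifs there and yet differed in how they followed the histone allele and the single cultures. DAL80, DAL3 and DAL1 were the members whose H3H113N libraries stood above their parent in every comparison outside H3H113N and WT in SC, and GAP1 and MEP2 were the members with the largest ratios between replicates of 1 group. Each run is 300 bases on the gene's strand, 5′ to 3′, from 350 to 51 bases before the start codon in the R64 genome, with each GATAA or its reverse complement TTATC in capitals. The windows are chrXI:506548-506847 (plus strand) for DAL80, chrIX:415668-415967 (minus strand) for DAL3, chrIX:407693-407992 (minus strand) for DAL1, chrXI:514713-515012 (plus strand) for GAP1 and chrXIV:357103-357402 (plus strand) for MEP2.
DAL80: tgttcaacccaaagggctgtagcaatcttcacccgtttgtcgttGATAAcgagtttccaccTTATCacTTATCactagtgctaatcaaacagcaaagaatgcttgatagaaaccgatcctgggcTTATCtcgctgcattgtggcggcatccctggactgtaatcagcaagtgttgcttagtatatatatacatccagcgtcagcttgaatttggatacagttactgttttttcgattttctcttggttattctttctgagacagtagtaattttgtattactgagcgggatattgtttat
DAL3: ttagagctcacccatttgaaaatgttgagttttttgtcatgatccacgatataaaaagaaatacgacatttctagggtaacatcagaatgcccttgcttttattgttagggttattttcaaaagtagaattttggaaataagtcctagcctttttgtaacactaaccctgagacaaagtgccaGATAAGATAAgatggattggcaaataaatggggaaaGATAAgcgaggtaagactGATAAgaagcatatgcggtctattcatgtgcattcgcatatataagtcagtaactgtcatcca
DAL1: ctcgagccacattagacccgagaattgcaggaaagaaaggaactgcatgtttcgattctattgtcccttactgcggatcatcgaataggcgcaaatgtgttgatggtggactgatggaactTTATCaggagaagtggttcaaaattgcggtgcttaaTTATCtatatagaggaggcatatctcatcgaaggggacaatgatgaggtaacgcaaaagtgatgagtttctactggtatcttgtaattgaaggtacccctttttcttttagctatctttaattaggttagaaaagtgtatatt
GAP1: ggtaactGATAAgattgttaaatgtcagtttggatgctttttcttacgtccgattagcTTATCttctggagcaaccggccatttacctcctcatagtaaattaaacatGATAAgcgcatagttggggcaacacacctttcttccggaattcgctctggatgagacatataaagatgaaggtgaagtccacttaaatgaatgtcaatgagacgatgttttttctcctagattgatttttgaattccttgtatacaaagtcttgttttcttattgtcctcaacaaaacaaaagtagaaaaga
MEP2: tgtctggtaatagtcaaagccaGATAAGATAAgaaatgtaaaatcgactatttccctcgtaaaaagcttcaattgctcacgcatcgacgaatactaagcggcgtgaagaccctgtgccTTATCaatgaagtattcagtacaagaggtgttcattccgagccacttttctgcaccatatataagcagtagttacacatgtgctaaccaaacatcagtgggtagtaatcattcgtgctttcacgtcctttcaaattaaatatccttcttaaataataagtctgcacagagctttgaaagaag
Read on both strands, the longer motif GATAAG occurred 4 times upstream of DAL3, 3 times each upstream of DAL80, GAP1, MEP2 and DAL7, 2 times each upstream of DAL2 and DAL5, 1 time each upstream of DAL4 and DUR3, and not in the DAL1 window. In all, 9 of the 10 members held at least 1 GATAAG, against 14.3% of the 6004 ORFs with such a window. At least 2 were held by 7 members and by 1.57% of ORFs, and at least 3 by 5 members and by 0.233% of ORFs. The shorter GATAA, which lies within GATAAG, was in all 10 member windows and in 60.6% of ORFs, and 8 members held at least 3 of them, against 7.45% of ORFs. A match of letters is a description and not a measured binding site. The unbroken pairs GATAAGATAA of DAL3 and MEP2 are 2 GATAAG motifs that share their G.

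**Figure D1:**
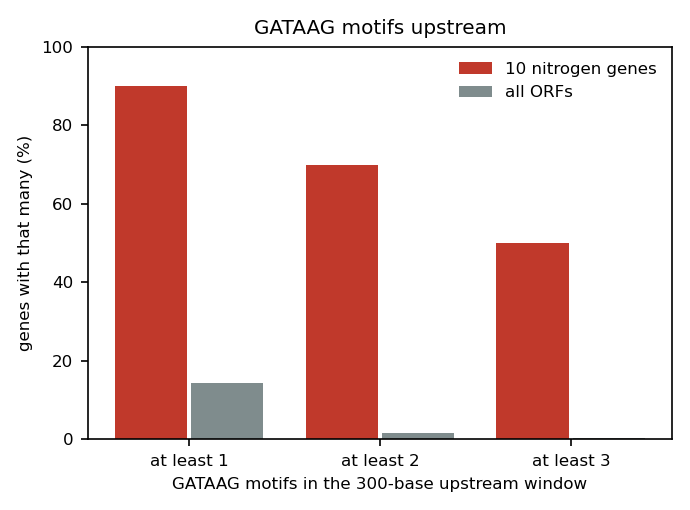
Share of genes (%, vertical axis) with at least 1, 2 or 3 GATAAG motifs in the 300-base upstream window, for the 10 nitrogen genes (red) and for all ORFs (grey). At least 1, 2 and 3 motifs were held by 9, 7 and 5 of the 10 nitrogen genes, and by 14.3%, 1.57% and 0.233% of all ORFs.

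DAL1, DAL4, DAL2, DAL7 and DAL3 lie in a cluster on chromosome IX, within bases 406260 to 415617, with DCG1 between DAL2 and DAL7. DAL80 (XI:506898-507707) and GAP1 (XI:515063-516871) lie near each other on chromosome XI, with CAF4 and KAE1 among the ORFs between them. DAL5 (X:719666-721297), MEP2 (XIV:357453-358952) and DUR3 (VIII:72037-74244) stand alone. No member overlapped another annotated ORF, and 100% of the 50-nt windows of each occurred at 1 place in the genome.

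The libraries held 1168159 to 6738018 counted reads, and were shallowest in SC (1168159 to 3658424). Read counts in CTR1 and CCS1 were at most 1 in the libraries that lacked the gene. The MATa genes MFA1, MFA2, STE2, BAR1 and STE6 were present in all 28 libraries, with medians of 54.4 to 229.8 RPKM, while the MATalpha genes MF(ALPHA)1, MF(ALPHA)2 and STE3 had medians of 2.16 to 16.6 RPKM, low but not at 0. In SC, replicate 3 stood apart from replicates 1 and 2 over the whole transcriptome. For H3H113N its Pearson r with the other libraries across ORFs was 0.930 and 0.936, against 0.966 between replicates 1 and 2, and for WT it was 0.875 and 0.889, against 0.963. YPD, SC-lys and copper libraries were made with one kit and YPEG and SC libraries with another, so kit and medium cannot be told apart in most comparisons between media.

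Levels are given as RPKM, the counted reads divided by the length of the ORF and by the size of the library, so that genes can be compared per length. The members were low to moderate in abundance. Over the 28 libraries the median was 3.82 RPKM for DAL80, 6.78 for DAL4, 11.4 for DAL1, 12.3 for DAL3, 13.2 for DAL5, 13.4 for DUR3, 18.1 for MEP2, 21.7 for DAL7, 23.8 for DAL2 and 32.0 for GAP1. DAL80 had at most 3 counts in 6 libraries, all with wild-type histone H3, and 0 counts in 2 of them.

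DAL80, the GATA repressor, had higher RPKM in every H3H113N library than in every library of its parent in YPD, YPEG, YPD without CTR1, SC without CCS1 and SC-lys. In YPD it had 4.29 and 6.89 RPKM in H3H113N, against 0 and 0.961 in WT. In YPEG it had 30.3 and 30.2 RPKM in H3H113N, against 5.15 and 3.19 in WT. In YPD without CTR1 it had 10.1 and 6.08 RPKM in H3H113N-dCtr1, against 1.54 and 0.578 in dCtr1. In each of these settings both H3H113N libraries stood above both libraries of the parent, and YPEG gave the highest levels of the gene under either allele. Without CCS1, DAL80 had 5.12 and 12.5 RPKM in H3H113N-dCcs1 in SC, against 0.746 and 2.65 in dCcs1. In SC-lys it had 18.5 and 14.1 RPKM in H3H113N-dCcs1, against 0.889 and 1.63 in dCcs1. The groups again did not overlap, although replicates in SC differed by 2.44-fold in H3H113N-dCcs1 and by 3.55-fold in dCcs1. In SC itself DAL80 had 3.35, 8.45 and 14.8 RPKM in H3H113N, against 0.337, 0 and 0.814 in WT, which are 35 counts in all against 2. Because RNA came from whole cultures, more transcript per cell and a larger share of cells with transcript cannot be told apart.

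**Figure D2:**
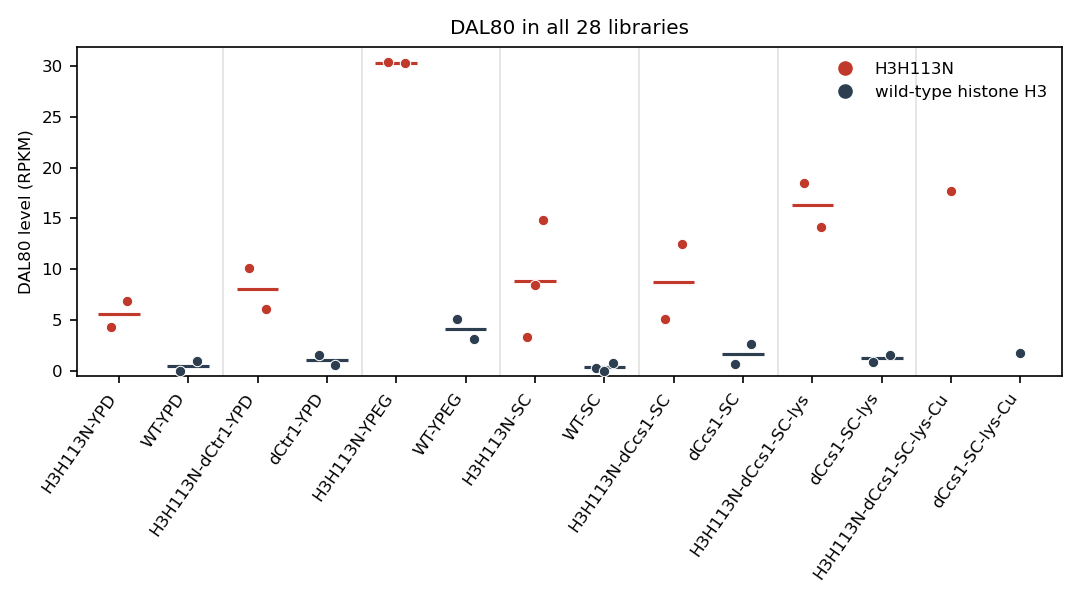
DAL80 level (RPKM, vertical axis) in each of the 28 libraries by group, with H3H113N strains in red, each left of its parent with wild-type histone H3 in dark blue; points are libraries and bars group means. H3H113N libraries run from 3.35 to 30.3 RPKM and those with wild-type histone H3 from 0 to 5.15 RPKM, with the SC libraries that chose DAL80 included.

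By edgeR's quasi-likelihood test with Benjamini-Hochberg adjustment over 6592 ORFs, DAL80 rose in 3 of the 5 comparisons that share no library with the contrast that chose the genes. The log2 fold change was 3.36 ± 0.66 (SE, adjusted p = 0.00404) for H3H113N-dCcs1 against dCcs1 in SC-lys, 2.78 ± 0.60 (adjusted p = 0.0348) for H3H113N against WT in YPEG, and 2.76 ± 0.70 (adjusted p = 0.0442) for H3H113N-dCtr1 against dCtr1 in YPD. It was 3.15 ± 0.82 (adjusted p = 0.0692) for H3H113N against WT in YPD and 2.24 ± 0.81 (adjusted p = 0.205) for H3H113N-dCcs1 against dCcs1 in SC, and neither passed the threshold of 0.05. The pooled count rates put H3H113N above its parent by a ratio of 13.1 in SC-lys (95% counting interval 7.14 to 26.7), 11.0 in YPD (4.05 to 42.1), 7.97 in YPD without CTR1 (3.97 to 18.1), 6.66 in YPEG (4.44 to 10.3) and 5.47 in SC without CCS1 (2.23 to 16.1). These intervals cover counting error only. The calls in YPEG and in YPD without CTR1 rest on all libraries: leaving out any 1 of the 4 put the adjusted p at 0.0990 to 0.241 in YPEG, with log2 fold changes of 2.58 to 3.15, and at 0.103 to 0.444 without CTR1, with log2 fold changes of 2.26 to 3.41. In SC-lys the adjusted p was 0.0529 without dCcs1-SC-lys replicate 1, and under 0.05 without any other library.

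DAL80 was the only member called in these 5 comparisons. Of all tested ORFs, 1.03% were called in either direction in YPEG, 2.18% in YPD without CTR1 and 10.7% in SC-lys, and the share of members called was 1 of 10 in each. In YPD edgeR called 0 of 10 members and 1.24% of ORFs. There DAL1, DAL3, DAL4, DAL5 and DAL80 had an unadjusted p under 0.05, DESeq2 called 2 members, and limma called 0 on log2(RPKM + 1) and 1 on log2(RPKM + 0.1). Of the 6592 ORFs, 828 had an unadjusted p under 0.05, DESeq2 called 186 and limma on log2(RPKM + 1) called 104. In SC without CCS1 edgeR called 0 of 10 members and 1.24% of ORFs, DAL3 and DAL80 had an unadjusted p under 0.05, and DESeq2 and both limma fits called 0. There 888 ORFs had an unadjusted p under 0.05, DESeq2 called 233 and limma on log2(RPKM + 1) called 206. The difference between the H3H113N effects was tested too: for DAL80 it was 1.12 ± 1.12 log2 units for SC-lys minus SC without CCS1 (adjusted p = 1), and -0.39 ± 1.11 for YPD without CTR1 minus YPD with it (adjusted p = 1). edgeR called 0 of 10 members in either test of a difference, against 0.0455% and 0% of ORFs. No member had an unadjusted p under 0.05, beside 322 and 149 ORFs. DESeq2 and limma called 0 members as well, while DESeq2 called 10 and 14 ORFs and limma on log2(RPKM + 1) 3 and 0.

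**Figure D3:**
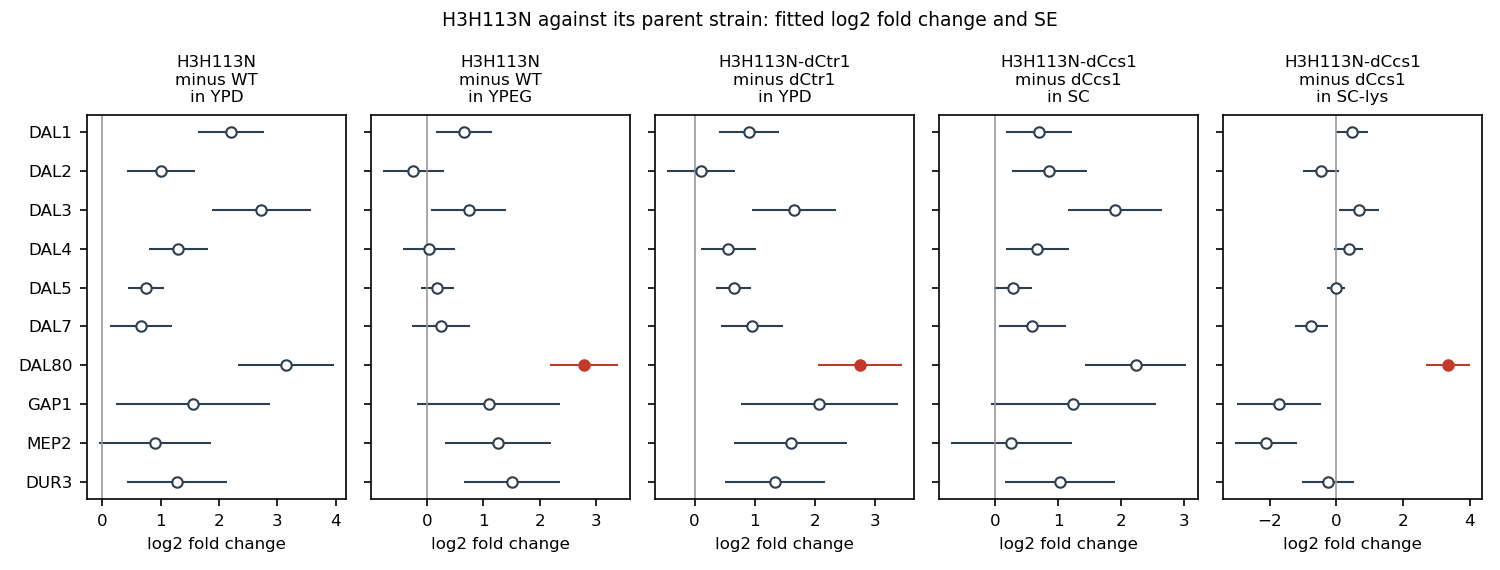
Fitted log2 fold change (horizontal axis, bars ± 1 SE) of each member for H3H113N against its parent in 5 settings; filled red points passed an adjusted p of 0.05 and open points did not. DAL80 is the filled point in YPEG (2.78), YPD without CTR1 (2.76) and SC-lys (3.36).

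Across strains and media, DAL80 had 3.35 to 30.3 RPKM in the 14 H3H113N libraries (median 11.3) and 0 to 5.15 RPKM in the 14 libraries with wild-type histone H3 (median 0.925). These ranges pool strains and media, and take in the H3H113N and WT libraries in SC that chose the set, which hold the 3.35. They are a description with no test. By group means, DAL80 was highest in H3H113N-YPEG (30.3 ± 0.07 RPKM, SD, n = 2), followed by H3H113N-dCcs1 in SC-lys with copper (17.7, 1 library) and without it (16.3 ± 3.1, n = 2). H3H113N-SC (8.88 ± 5.75, n = 3), H3H113N-dCcs1-SC (8.81 ± 5.21, n = 2), H3H113N-dCtr1-YPD (8.11 ± 2.87, n = 2) and H3H113N-YPD (5.59 ± 1.84, n = 2) came next, and each overlapped its neighbours in this order. WT-YPEG followed with 4.17 ± 1.39 RPKM (n = 2) and overlapped H3H113N-YPD. The other 6 groups with wild-type histone H3 had means of 0.384 to 1.75 RPKM, and each overlapped its neighbours among these 6. All of them stood below WT-YPEG, whose lower library had 3.19 RPKM. Both H3H113N-YPEG libraries stood above all others.

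Among the enzymes of allantoin breakdown, DAL1, allantoinase, had 7.54 and 11.4 RPKM in H3H113N in YPD, against 1.37 and 2.11 in WT. In YPD without CTR1 it had 10.4 and 11.0 RPKM in H3H113N-dCtr1, against 6.61 and 3.61 in dCtr1. In YPEG it had 16.2 and 20.6 RPKM in H3H113N, against 12.8 and 9.96 in WT. The groups did not overlap in any of these settings, and the distance was widest in YPD. In SC without CCS1 it had 15.5 and 19.8 RPKM in H3H113N-dCcs1, against 5.46 and 13.96 in dCcs1, and in SC-lys 23.8 and 17.2 in H3H113N-dCcs1, against 11.5 and 12.4 in dCcs1. For DAL1 the fit gave a log2 fold change of 2.20 ± 0.57 (edgeR, adjusted p = 0.0649) for YPD and 0.48 to 0.90 in the other 4 settings, none of which passed the test.

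DAL3, ureidoglycolate lyase, had 9.07 and 10.9 RPKM in H3H113N in YPD, against 1.61 and 0.993 in WT. In YPD without CTR1 it had 11.9 and 12.9 RPKM in H3H113N-dCtr1, against 4.59 and 2.39 in dCtr1. In SC without CCS1 it had 14.7 and 32.4 RPKM in H3H113N-dCcs1, against 6.16 and 3.65 in dCcs1. Each H3H113N library again stood above its parent's. In YPEG DAL3 had 17.2 and 21.3 RPKM in H3H113N, against 9.03 and 13.9 in WT, and in SC-lys 27.0 and 27.2 in H3H113N-dCcs1, against 6.74 and 20.5 in dCcs1. For DAL3 the fit gave 2.72 ± 0.84 log2 units for YPD (edgeR, adjusted p = 0.139), 1.91 ± 0.75 in SC without CCS1 (adjusted p = 0.251), 1.66 ± 0.70 in YPD without CTR1 (adjusted p = 0.313) and 0.68 to 0.74 in the other 2 settings, so DAL3 passed the test in none.

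DAL2, allantoicase, and DAL7, a malate synthase, followed the allele less regularly. DAL2 had 20.7 and 17.0 RPKM in H3H113N in YPD, against 8.93 and 7.35 in WT, but 53.8 and 50.9 in H3H113N in YPEG, against 51.8 and 70.0 in WT. Its YPEG libraries thus overlapped. DAL7 had 12.3 and 16.6 RPKM in H3H113N in YPD, against 8.65 and 7.13 in WT. In YPD without CTR1 it had 27.5 and 18.4 RPKM in H3H113N-dCtr1, against 12.7 and 8.16 in dCtr1. In SC-lys it had 29.3 and 35.4 RPKM in H3H113N-dCcs1, against 16.4 and 71.2 in dCcs1, so that the dCcs1 libraries lay on both sides. Across the 5 settings the fitted log2 fold change ran from -0.463 to 1.005 for DAL2 and from -0.75 to 0.95 for DAL7, and none passed the test.

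Of the permeases of the allantoin pathway, DAL4 had 3.89 and 6.37 RPKM in H3H113N in YPD, against 2.23 and 1.43 in WT, and 6.67 and 6.97 in H3H113N-dCtr1, against 4.90 and 3.27 in dCtr1. In YPEG its libraries overlapped, with 9.66 and 8.12 RPKM in H3H113N, against 7.26 and 10.1 in WT. DAL5 had 9.09 and 9.56 RPKM in H3H113N in YPD, against 5.35 and 4.29 in WT, and 11.3 and 10.7 in H3H113N-dCtr1, against 6.11 and 6.02 in dCtr1. DAL5 was the member whose replicates agreed best, with a ratio of highest to lowest replicate of at most 1.82. The fitted log2 fold changes ran from 0.04 to 1.30 for DAL4 and from -0.01 to 0.75 for DAL5, and none passed the test.

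Counted by library, all H3H113N libraries stood above all of their parent for 10 of 10 members in YPD (37.5% of ORFs), 10 in YPD without CTR1 (38.5%), 8 in SC without CCS1 (28.5%), 7 in YPEG (31.4%) and 4 in SC-lys (48.0%). No member stood wholly below its parent, as 11.2% of ORFs did in YPD, 12.1% in YPD without CTR1, 9.77% in SC without CCS1, 25.4% in YPEG and 14.5% in SC-lys. DAL1, DAL3 and DAL80 stood wholly above it in all 5, as did 419 of 6592 ORFs (6.36%). The median fitted log2 fold change of the 10 members was 1.30 in YPD, 1.14 in YPD without CTR1, 0.78 in SC without CCS1, 0.70 in YPEG and -0.13 in SC-lys, beside medians over all ORFs of 0.01, -0.02, 0.00, 0.00 and 0.00 in that order. Of the members, 10, 10, 10, 9 and 4 had a positive fold change in that order. Without dCcs1-SC-lys replicate 2, the median in SC-lys was 0.78 and all 10 were positive.

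GAP1, MEP2 and DUR3, the permeases of amino acids, ammonium and urea, differed between single cultures of 1 group by up to 20.4-fold, 8.39-fold and 7.32-fold. GAP1 had 17.4 and 34.5 RPKM in H3H113N in YPD, against 6.14 and 8.93 in WT. In YPEG it had 47.3 and 73.2 RPKM in H3H113N, against 25.6 and 29.5 in WT. In YPD without CTR1 it had 83.5 and 24.1 RPKM in H3H113N-dCtr1, against 13.9 and 8.45 in dCtr1, and in SC without CCS1 48.5 and 35.9 in H3H113N-dCcs1, against 13.0 and 18.7 in dCcs1. Every H3H113N library was above every library of its parent in these 4 settings. SC-lys differed from these, with 58.0 and 60.9 RPKM in H3H113N-dCcs1, against 21.7 and 295 in dCcs1. One dCcs1 library stood below both H3H113N-dCcs1 libraries and the other far above them. None of these differences passed the test: the fitted log2 fold change of GAP1 was 1.09 to 2.08 in the first 4 settings and in SC-lys it was -1.72 ± 1.26 (edgeR, adjusted p = 0.452), which became 1.15 without dCcs1 replicate 2 (adjusted p = 0.737).

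In SC, GAP1 had 28.7, 63.4 and 426 RPKM in H3H113N, against 10.9, 14.02 and 222 in WT, so replicate 3 stood 6.72-fold above the next highest library in H3H113N and 15.9-fold in WT. MEP2 had 23.0, 39.9 and 167 RPKM in H3H113N in SC, against 14.8, 25.4 and 60.7 in WT. DUR3 had 17.8, 36.1 and 130.0 RPKM in H3H113N in SC, against 7.43, 10.5 and 37.9 in WT. For all 3 permeases the highest SC library of either strain was replicate 3, the replicate that stood apart over the whole transcriptome. Replicate 3 was the highest library for 7 of 10 members in H3H113N, beside 37.1% of ORFs, and for all 10 in WT, beside 42.8% of ORFs. Of the 33 other nitrogen genes described further on, replicate 3 was the highest library for 23 and the lowest for 7 in H3H113N, and the highest for 23 and the lowest for 6 in WT. The urea amidolyase DUR1,2 had 364 RPKM in H3H113N replicate 3, where the other 2 libraries had 29.2 and 47.1, and 145 in WT replicate 3, where they had 11.6 and 10.5. The GATA activator GAT1 had 167 RPKM in H3H113N replicate 3, where the others had 42.5 and 60.9, and 111 in WT replicate 3, where they had 29.1 and 27.6. The amino acid permease TAT1 lay the other way, at 137 RPKM in H3H113N replicate 3, where the others had 284 and 351, and 65.6 in WT replicate 3, where they had 202 and 243. These 3 genes were chosen after their values were seen. DAL80 was 14.8 RPKM in that H3H113N library and 0.814 in that WT library.

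**Figure D4:**
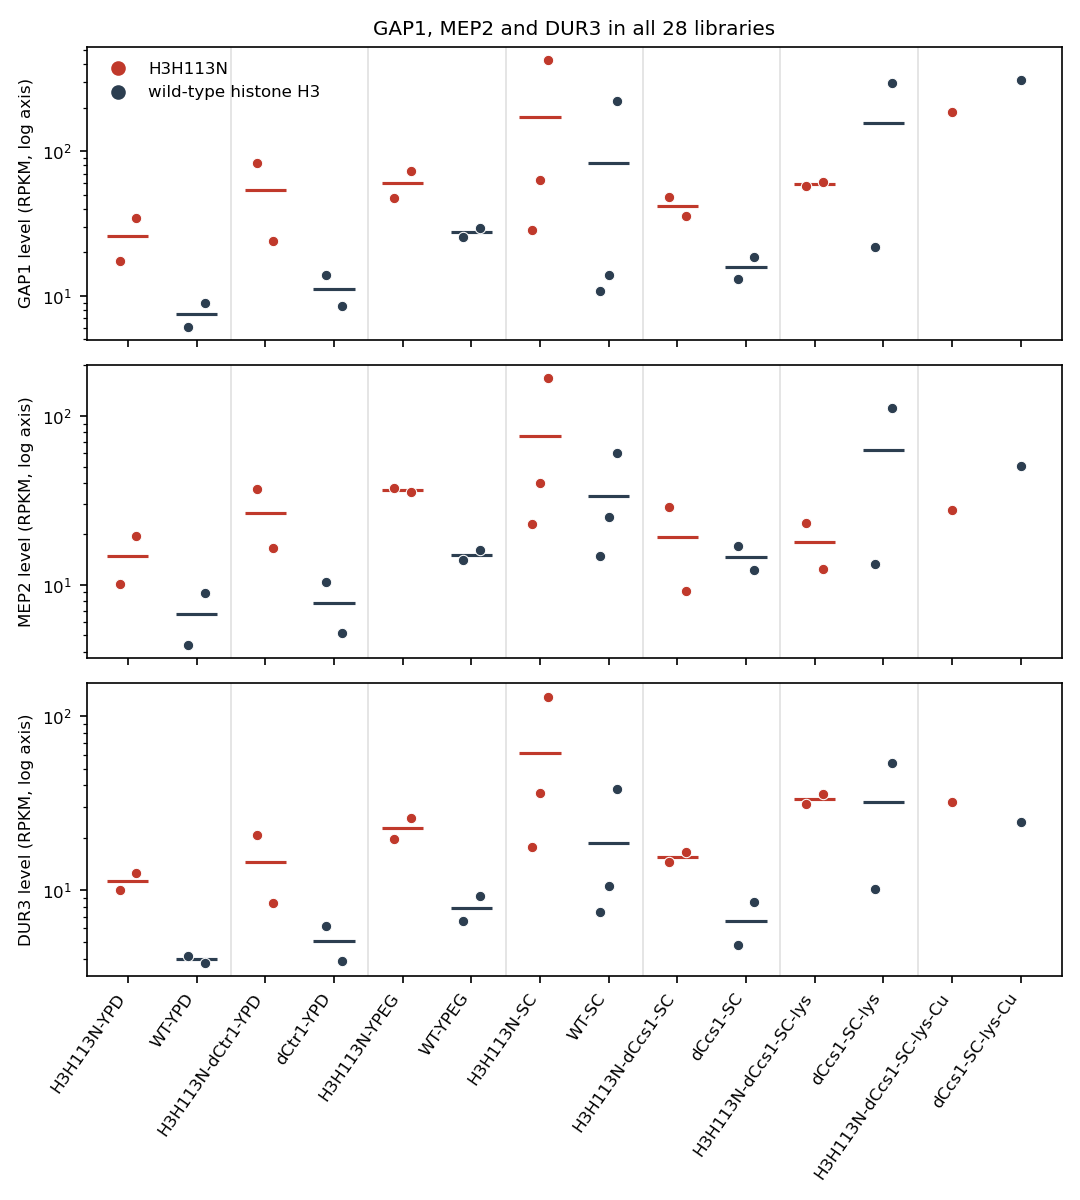
GAP1, MEP2 and DUR3 levels (RPKM, log axes, 1 panel each) in the 28 libraries by group, with H3H113N strains in red, each left of its parent in dark blue; points are libraries and bars group means. Single libraries stand far above their replicates, as for GAP1 in H3H113N-SC (426 against 28.7 and 63.4), WT-SC (222 against 10.9 and 14.02) and dCcs1-SC-lys (295 against 21.7).

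In SC-lys, MEP2 had 23.3 and 12.3 RPKM in H3H113N-dCcs1, against 13.3 and 112 in dCcs1. DUR3 had 31.3 and 35.5 RPKM in H3H113N-dCcs1, against 10.1 and 54.0 in dCcs1. The same dCcs1 library, replicate 2, was the higher one for all 10 members, beside 50.2% of ORFs, with ratios to replicate 1 of 1.08 for DAL1 to 13.6 for GAP1 and of 1.83 for DAL80. The fitted log2 fold change was -2.12 ± 0.93 for MEP2 (edgeR, adjusted p = 0.163) and -0.25 ± 0.78 for DUR3 (adjusted p = 0.899), and without that library 0.12 for MEP2 (adjusted p = 0.967) and 1.42 for DUR3 (adjusted p = 0.478). In YPD MEP2 had 10.05 and 19.4 RPKM in H3H113N, against 4.41 and 8.95 in WT, and DUR3 9.98 and 12.4 in H3H113N, against 4.17 and 3.79 in WT. In YPEG MEP2 had 37.3 and 35.7 RPKM in H3H113N, against 14.04 and 16.1 in WT, and DUR3 19.7 and 25.8 in H3H113N, against 6.62 and 9.16 in WT. The libraries did not overlap in either medium, and the fitted log2 fold changes of 0.90 to 1.505 did not pass the test.

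The libraries with the most GAP1 and those with the most DAL80 are set side by side. The 3 libraries with wild-type histone H3 that had 222 to 310.1 RPKM of GAP1 had 0.814, 1.63 and 1.75 RPKM of DAL80. The 2 H3H113N libraries with the most GAP1, at 426 and 188 RPKM, had 14.8 and 17.7 RPKM of DAL80. The 2 H3H113N libraries in YPEG had 47.3 and 73.2 RPKM of GAP1 and the 2 highest DAL80 levels of all libraries, 30.3 and 30.2. The 0.814 and the 14.8 are replicate 3 of WT and of H3H113N in SC, from the contrast that chose DAL80, so nothing is read from their difference. These are single libraries, picked by their levels, with no test.

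**Figure D5:**
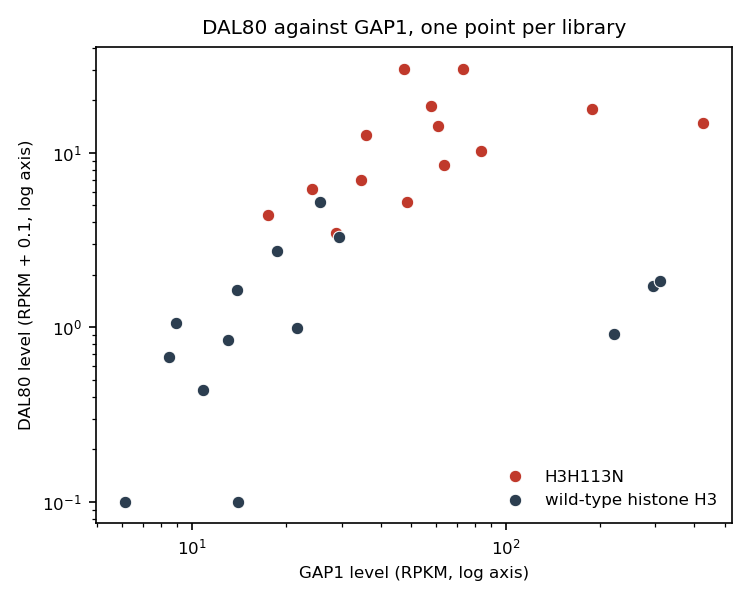
DAL80 (RPKM + 0.1, log vertical axis) against GAP1 (RPKM, log horizontal axis) in each of the 28 libraries, H3H113N in red and wild-type histone H3 in dark blue. The 3 dark blue points at the far right, at 222 to 310.1 RPKM of GAP1, have 0.814 to 1.75 RPKM of DAL80. The H3H113N and WT libraries in SC, from the contrast that chose DAL80, are among the points.

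In the contrast that chose the set, H3H113N against WT in SC, the fitted log2 fold change was 2.11 for DAL3, 1.51 for DUR3, 0.99 for DAL1, 0.98 for MEP2, 0.85 for GAP1, 0.47 for DAL7, 0.21 for DAL5, 0.06 for DAL2 and 0.05 for DAL4. DAL80 was the only member whose SC libraries did not overlap between the strains (15.3% of ORFs stood wholly above WT), and nothing is read from that count. The median of the 10 members was 0.91, beside -0.05 over all ORFs. It was 1.78 without WT-SC replicate 3 and 0.07 without H3H113N-SC replicate 3, and 0.95 without replicate 3 of both strains.

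The deletions alone were compared with WT. In YPD, edgeR called 0 of 10 members for dCtr1 against WT, and 0.0455% of ORFs. DAL1 and DAL4 had an unadjusted p under 0.05, as did 207 ORFs in all. DESeq2 and limma called 0 members, beside 7 ORFs for DESeq2 and 3 for limma on log2(RPKM + 1). DAL1, at 6.61 and 3.61 RPKM in dCtr1 against 1.37 and 2.11 in WT, had a log2 fold change of 1.43 ± 0.58 (adjusted p = 1), and 5 members, DAL1 to DAL5, stood wholly above WT (17.5% of ORFs). In SC, edgeR called 0 of the 9 members tested for dCcs1 against WT, and 0.0152% of ORFs. None had an unadjusted p under 0.05, beside 144 ORFs, and no member stood wholly above WT (4.05% of ORFs). DESeq2 and limma called 0 members, beside 2 ORFs for DESeq2 and 1 for limma on log2(RPKM + 1). DAL80 was left out of this test and of the media tests with SC in WT and H3H113N, because they share libraries with the contrast that chose it. It had 0.746 and 2.65 RPKM in dCcs1, against 0.337, 0 and 0.814 in WT.

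Between media, edgeR called DAL5 in 2 comparisons, and the share of members called was near that of all ORFs. DAL5, the allantoate permease, rose in WT in SC, with 11.9, 12.1 and 19.0 RPKM, against 5.35 and 4.29 in YPD, a log2 fold change of 1.21 ± 0.29 (edgeR, adjusted p = 0.0160). It rose in dCcs1 in SC-lys, with 15.3 and 27.95 RPKM, against 8.70 and 13.1 in SC, a log2 fold change of 1.01 ± 0.29 (adjusted p = 0.0482). In each comparison DAL5 was the only member called, 1 of 9 beside 8.37% of ORFs and 1 of 10 beside 6.04% of ORFs. For dCcs1, DESeq2 called 2 members, beside 649 ORFs, and the replicate block called 3, for which no share of ORFs is given. In WT the adjusted p of DAL5 was 0.0749 without WT-SC replicate 3 and 0.0797 and 0.166 without either YPD library. In dCcs1 it was 0.0763 to 0.476 without SC replicate 1, SC replicate 2 or SC-lys replicate 2, and the last gave a log2 fold change of 0.52. These pairs of media also differ in kit, which cannot be told apart from the medium.

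The other members did not pass the test between these media. In WT, 8 of 10 members stood wholly higher in SC than in YPD (35.5% of ORFs), and the fitted log2 fold change was 1.21 to 3.06 over the 9 tested, with a median of 1.32 over all 10. Without replicate 3 in SC it was 0.32 to 1.44 over the 9, with a median of 0.74, and GAP1 was at 0.32 in place of 3.06. DAL1 overlapped, and DAL80 had 0.337, 0 and 0.814 RPKM in SC, against 0 and 0.961 in YPD. In dCcs1, 5 of 10 stood wholly higher in SC-lys than in SC (24.1% of ORFs), with a median log2 fold change of 1.33, which was 0.39 without dCcs1-SC-lys replicate 2, and DAL80 was at -0.24 ± 0.93 (edgeR, adjusted p = 0.922). In H3H113N-dCcs1, SC-lys against SC, 5 members stood wholly higher (32.4% of ORFs), among them DAL80, with 18.5 and 14.1 RPKM in SC-lys, against 5.12 and 12.5 in SC, a log2 fold change of 0.88 ± 0.58 (edgeR, adjusted p = 0.350). There edgeR called 0 of 10 members and 13.6% of ORFs, and DAL5 had an unadjusted p under 0.05, as did 1850 ORFs in all. DESeq2 and limma called 0 members, beside 1203 ORFs for DESeq2 and 757 for limma on log2(RPKM + 1).

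YPEG and SC libraries were made with the same kit. In WT, edgeR called 0 of 9 members for YPEG against SC and 11.5% of ORFs. DAL2 alone had an unadjusted p under 0.05, with 51.8 and 70.0 RPKM in YPEG, against 12.7, 15.7 and 45.4 in SC, and a log2 fold change of 1.15 ± 0.51 (adjusted p = 0.161). In H3H113N, edgeR called 0 of 9 members and 10.9% of ORFs, and none had an unadjusted p under 0.05. Over all ORFs, 1700 in WT and 1872 in H3H113N had an unadjusted p under 0.05. DESeq2 and limma called 0 members in both strains. DESeq2 called 960 ORFs in WT and 1090 in H3H113N, and limma on log2(RPKM + 1) called 851 and 628. DAL2 and DAL80 stood wholly higher in YPEG in both strains (23.3% of ORFs in H3H113N and 24.5% in WT). GAP1, MEP2 and DUR3 had negative fitted log2 fold changes in both, from -1.77 to -1.05. Without replicate 3 in SC, GAP1 was instead at 0.44 in H3H113N and 0.97 in WT, MEP2 at 0.26 in H3H113N and -0.57 in WT, and DUR3 at -0.19 in H3H113N and -0.37 in WT. In that fit 2 members, DAL1 at 1.56 (adjusted p = 0.0353) and DAL2 at 1.92 (adjusted p = 0.0110), were called in WT. The share of all ORFs called in that fit is not given here.

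The copper libraries stand alone in their groups and were not tested. DAL80 had 17.7 RPKM in H3H113N-dCcs1 with copper, against 1.75 in dCcs1 with copper, or 80 counts against 7. GAP1 had 188 RPKM in H3H113N-dCcs1 with copper, above its 58.0 and 60.9 in SC-lys, and 310.1 in dCcs1 with copper, above its 21.7 and 295 in SC-lys. Of the 10 members, 3 lay above, 3 below and 4 within the range of the 2 SC-lys libraries in H3H113N-dCcs1, beside 20.4%, 55.4% and 24.2% of ORFs. In dCcs1 2 lay above, 1 below and 7 within it, beside 17.1%, 56.7% and 26.2% of ORFs.

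The 4 lists of 33 other nitrogen genes were set beside the members. For H3H113N against its parent, the list of 14 other nitrogen catabolic genes had 1 gene called, UGA4, the GABA permease, in YPD, with 6.35 and 6.60 RPKM in H3H113N, against 2.06 and 2.27 in WT, a log2 fold change of 1.36 ± 0.32 (edgeR, adjusted p = 0.0454). Its median log2 fold change was 0.82 in YPD, 0.85 in YPD without CTR1, 0.69 in YPEG, 0.26 in SC without CCS1 and -0.60 in SC-lys. The 6 GATA factors and regulators had medians of -0.23 to 0.23 over these settings, the 7 genes of ammonium uptake and assimilation -0.79 to 0.76, and the 6 other amino acid permeases -0.23 to 0.42. In YPEG, in YPD without CTR1 and in SC without CCS1 edgeR called 0 of the 33 genes. There 8, 4 and 2 of them had an unadjusted p under 0.05, beside 970, 839 and 888 of 6592 ORFs. DESeq2 called 0, 2 and 0 of them, beside 176, 293 and 233 ORFs. On log2(RPKM + 1) limma called 0, 1 and 0, beside 45, 186 and 206 ORFs, and on log2(RPKM + 0.1) the same list counts.

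In SC-lys 4 of the 33 list genes were called, beside 10.7% of ORFs, a like share. GLN3, the GATA activator, rose to 92.9 and 104 RPKM in H3H113N-dCcs1, against 43.6 and 29.7 in dCcs1, a log2 fold change of 1.12 ± 0.26 (edgeR, adjusted p = 0.0116), and the branched-chain amino acid permease BAP2 rose by 0.92 ± 0.28 (adjusted p = 0.0402). The glutamate dehydrogenase GDH1 fell to 202 and 225 RPKM in H3H113N-dCcs1, against 483 and 1467 in dCcs1, with a log2 fold change of -2.50 ± 0.54 (adjusted p = 0.00708). The proline permease PUT4 fell to 5.04 and 4.91 RPKM in H3H113N-dCcs1, against 4.68 and 34.0 in dCcs1, with a log2 fold change of -2.26 ± 0.66 (adjusted p = 0.0345). The PUT4 libraries overlapped, and its high value came from dCcs1 replicate 2, the library that was high for GAP1. Without that library the log2 fold change was -0.21 for PUT4, -1.48 for GDH1 and 0.87 for GLN3, and these calls were lost. They were also lost without either H3H113N-dCcs1 library. There the log2 fold change was -2.30 and -2.23 for PUT4, -2.44 and -2.56 for GDH1 and 1.18 and 1.05 for GLN3. BAP2 lost its call with any 1 of the 4 libraries left out, at 0.85 to 0.98. UGA4 in YPD likewise lost its call with any 1 of its 4 libraries left out, at log2 fold changes of 1.27 to 1.52. For the deletions against WT, edgeR, DESeq2 and limma called 0 of 33 list genes. An unadjusted p under 0.05 was found for 2 of them in YPD and 0 in SC, beside 207 and 144 of 6592 ORFs.

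Between media, edgeR called 6 of the 33 list genes for YPEG against SC in H3H113N (10.9% of ORFs) and 4 in WT (11.5%), and for SC-lys against SC 4 in H3H113N-dCcs1 (13.6%) and 4 in dCcs1 (6.04%). In YPEG against SC, PUT4 rose by 3.06 ± 0.59 log2 units in H3H113N (edgeR, adjusted p = 0.00312) and 3.55 ± 0.64 in WT (adjusted p = 0.00120). PUT1, proline oxidase, rose by 3.48 ± 0.77 in H3H113N (adjusted p = 0.00822) and 2.56 ± 0.79 in WT (adjusted p = 0.0422). GDH2, the glutamate dehydrogenase that releases ammonium, rose by 2.13 ± 0.42 in H3H113N (adjusted p = 0.00395) and 2.76 ± 0.43 in WT (adjusted p = 0.000348). PUT2, which acts after PUT1 in proline breakdown, rose by 1.19 ± 0.33 in H3H113N (adjusted p = 0.0276) and 1.07 ± 0.33 in WT (adjusted p = 0.0401). DCG1, which lies inside the DAL cluster, was called in H3H113N and not in WT, at 1.70 ± 0.40 (adjusted p = 0.0122), as was GDH3, at 1.46 ± 0.35 (adjusted p = 0.0135); the difference between the strains was not tested. The calls of PUT4 and GDH2 held with any 1 library left out. PUT1 lost its call in H3H113N without YPEG replicate 1, at 2.89, and in WT without YPEG replicate 2, at 1.24. In WT it also lost the call without SC replicate 1, at 2.14 (edgeR, adjusted p = 0.144), or SC replicate 2, at 2.36 (adjusted p = 0.135). PUT2 kept its call without SC replicate 3, and had adjusted p-values of 0.0743 to 0.232 in H3H113N and 0.106 to 0.209 in WT with any 1 other library left out. GDH3 was at 1.04 (adjusted p = 0.299) without H3H113N-YPEG replicate 1 and lost its call without SC replicate 1 or 2 (adjusted p = 0.0612 and 0.0622), and DCG1 lost it without either YPEG library (adjusted p = 0.0749 and 0.0636). In dCcs1 in SC-lys against SC, PUT1 rose by 3.35, PUT4 by 2.78, GDH2 by 1.88 and BAT2, a branched-chain aminotransferase, by 2.36 log2 units, with adjusted p-values of 0.0423, 0.0329, 0.0279 and 0.0222. Without dCcs1-SC-lys replicate 2 these were 1.01, 0.74, 0.74 and 1.95 log2 units, and the calls were lost. They were also lost without either SC library. There PUT1 was at 2.65 and 4.41, PUT4 at 2.66 and 2.88, GDH2 at 1.57 and 2.25 and BAT2 at 2.23 and 2.50. In H3H113N-dCcs1 BAT2 rose by 1.87, GLN3 by 1.17 and BAP2 by 1.15 log2 units (adjusted p = 0.0368, 0.00701 and 0.0104), and URE2, which rose by 0.70, is the other called gene (adjusted p = 0.0151). BAT2 had adjusted p-values of 0.0912 to 0.178 with any 1 of the 4 libraries left out. GLN3 lost its call without SC replicate 1 or SC-lys replicate 2 (adjusted p = 0.0593 and 0.0557), BAP2 without SC replicate 2 or SC-lys replicate 1 (adjusted p = 0.0988 and 0.0673), and URE2 without SC replicate 2 or either SC-lys library (adjusted p = 0.0652 to 0.136). For WT in SC against YPD edgeR called 0 of 33 list genes, and 7 had an unadjusted p under 0.05, beside 1769 of 6592 ORFs. DESeq2 called 2 list genes, beside 901 ORFs. Both limma fits called 4, beside 994 ORFs on log2(RPKM + 1).

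In the 5 H3H113N comparisons edgeR called none of the 12 tested ORFs next to the members. ORFs whose systematic names end in -A, -B or -C were skipped in finding these neighbours, so a skipped ORF may lie nearer. Beside DAL80, CAF4, which encodes a WD40 protein of mitochondrial fission, had log2 fold changes of -0.19 to 0.41, and beside MEP2, AAH1, adenine deaminase, had -1.06 to -0.85. In H3H113N-dCcs1 against dCcs1 the median log2 fold change was 0.35 for all ORFs of chromosome XI and 0.29 for those of chromosome IX in SC, and 0.25 and 0.32 in SC-lys, where DAL80, GAP1 and the DAL cluster lie. With each chromosome centred, the log2 fold change of DAL80 was 1.87 in SC and 3.11 in SC-lys (adjusted p = 0.00864), and for H3H113N-dCtr1 against dCtr1 it was 2.78 with an adjusted p of 0.0863, so that call was lost.

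Over the 14 group means, on log2(RPKM + 1), the levels of ORFs were compared with the mean level of the members. The ORF that ran most like this mean was ERR1 (Pearson r = 0.966), an enolase-related ORF with near-identical copies that make its counts uncertain. PRX1, a mitochondrial peroxiredoxin (0.963), HER1 (0.960), YHR219W (0.959) and YET1 (0.953) came next. None is a member or a list gene. These correlations describe 14 means that share libraries, media and kits.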

How the data were processed

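Poly(A)+ RNA was sequenced as single-end reads of 50 nt, and, per the labels, strand was not used in counting. Per the submitters' processing notes the sources name TopHat2 2.0.9 and the R64 (sacCer3) build; the counting tool is not given in the sources used here. The authors deposited whole-number read counts and RPKM values (counted reads by ORF length and library size) of 6692 ORFs in 28 libraries. The deposited RPKM were recomputed from the counts to within a relative difference of 3.8e-09. Of 5377 ORF starts, 5375 equalled those of the RefSeq R64 annotation, which gave ORF ends, neighbours and upstream sequences.

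The counts were tested with edgeR 4.0.16 (R 4.3.3, glmQLFit and glmQLFTest, TMM scaling) on all 26 libraries of the 12 replicated groups, 1 mean per group. The 6592 ORFs whose mean RPKM reached 1 were kept, and Benjamini-Hochberg adjustment ran over them in each comparison. An adjusted p below 0.05 made a call. Residual degrees of freedom were 14, and the common biological coefficient of variation was 29.5%. Intervals of count ratios are exact 95% intervals for counting error only, on library totals without TMM.

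Alternatives were library totals, median-ratio scaling, no filter, a higher minimum of 5 RPKM, DESeq2 1.42.0, limma 3.58.1 on log2(RPKM + 1) and log2(RPKM + 0.1), a fit to the compared groups only, chromosome centring, a replicate block and leaving out each replicate. Leaving out replicate 3 of both strains in SC and a crossed block were chosen after seeing the data. The members, the lists and the upstream motifs were chosen with earlier results of these data known. All members are named. Of the other lists, genes called with a log2 fold change of at least 1 in size are named, at most 4 per list and comparison, and BAP2 in SC-lys and URE2 were named below that size after their values were seen. Replicate numbers were taken to pair the libraries for H3H113N and WT in SC, where deviations of 3 same-numbered pairs from the group means correlated at 0.43 to 0.76. That contrast was not tested. Pairing in the other comparisons is not known, and the main tests did not use replicate numbers. The scripts were tested on simulated data.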

Additional observations from a re-analysis of the deposited data

How the results depend on the processing

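Over the 10 members, 2297 fitted log2 fold changes under an alternative were compared with their reported values: 108 changed sign, none of them a called value, 27 lost the call and 27 gained one. Only the called values, those of DAL80 and DAL5, could lose a call, so the 27 lost calls are not a share of the 2297. Of 230 alternatives for the 15 summary values, 185 stayed within 1.5 times the reported count or within the spread between replicates. For H3H113N against WT in YPD, the 0 members called became 1 with library totals, 1 with limma on log2(RPKM + 0.1), 2 with DESeq2 and 3 with the replicate block. For YPEG the 1 member became 0 with library totals and with limma on log2(RPKM + 0.1), and 4 in the fit to the compared groups. For YPD without CTR1 the 1 member became 0 with limma on log2(RPKM + 0.1), in the fit to the compared groups and with chromosomes centred. For SC-lys it became 0 in the fit to the compared groups. For WT in SC against YPD the 1 member became 2 with library totals, 3 with limma on log2(RPKM + 0.1) and 0 in the fit to the compared groups. For dCcs1 in SC-lys against SC it became 0 with library totals, both limma fits and the fit to the compared groups, 2 with DESeq2 and 3 with the replicate block. The replicate block also gave 1 in place of 0 for YPEG against SC in WT and in H3H113N, and for SC-lys against SC in H3H113N-dCcs1. The causes of these moves were not tested, except that the fit to the compared groups has fewer libraries. Shares of all ORFs called under each alternative are not given in this section, so its counts are not read as results about the members.

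Leaving out single replicates gave 0 members in every case for YPEG and for YPD without CTR1, 0 to 1 for SC-lys, 0 to 2 for YPEG against SC in WT, 0 to 4 for WT in SC against YPD, and 0 to 2 for dCcs1 in SC-lys against SC. A group left with 1 library was assumed to vary like the others. Without replicate 3 of both strains in SC, 2 members were called for YPEG against SC in WT and 0 for WT in SC against YPD. The median of the members for H3H113N against WT in SC ran from 0.0741 to 1.78 over single libraries left out, and was 0.95 without replicate 3 of both strains.

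Outside H3H113N and WT in SC, it is not known whether replicate numbers pair the libraries. Same-numbered deviations correlated at 0.65 for H3H113N and WT in YPD, where the replicate block called 3 members in place of 0. For H3H113N-dCcs1 and dCcs1 they correlated at 0.56 in SC-lys and 0.49 in SC. The value was 0.22 for H3H113N-dCtr1 and dCtr1 in YPD and 0.12 for H3H113N and WT in YPEG. For dCcs1 and WT in SC it was 0.61 for replicate 1 and -0.46 for replicate 2. Same-numbered libraries of dCtr1 and WT in YPD deviated against each other (r = -0.47), and the block with crossed numbers called 0 members, as did the block as numbered. The motif share moved with the motif, from 14.3% of ORFs with GATAAG to 60.6% with GATAA. Depth limits DAL80 most, with at most 3 counts in 6 libraries.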
